A study of Mus musculus with 20 samples.

Results

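Heat shock proteins and their DNAJ co-chaperones were followed through oxygen-glucose deprivation in mouse cortical neurons. Members were taken by gene symbol alone, as the HSPA, HSPB, HSPD, HSPE and HSPH families, the 3 HSP90 genes Hsp90aa1, Hsp90ab1 and Hsp90b1, and the numbered genes of the DNAJA, DNAJB and DNAJC classes. The rule found 59 of the 14700 genes listed in any of the 4 expression tables, and 57 of them were listed in all 4. Hspb1 was not listed in the comparison of the normoxia groups and Hspb8 in only 2 tables, each with a deprived group in which it was higher. A gene that passes a filter on low values through 1 group has to differ between groups, so their changes are given as values and not as support for a direction of the family.

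Chaperones bind unfolded stretches of other proteins and release them in cycles of ATP hydrolysis. HSP70 proteins (the Hspa genes) do this work in the cytosol, the endoplasmic reticulum (ER) and the mitochondria, and J-domain proteins (the Dnaj genes) deliver clients to them and stimulate their ATPase. HSP90 proteins mature signalling proteins and receptors, small heat shock proteins (the Hspb genes) hold unfolded clients without ATP, and the Hspd1-Hspe1 chaperonin folds proteins inside mitochondria. Part of the family is present in unstressed cells, while others are induced when the transcription factor HSF1 binds heat shock elements, or when the unfolded protein response acts through ER stress elements. Neurons are known for high constitutive levels of Hspa8, the cytosolic HSP70, and for J-domain proteins at the synapse, among them auxilin (Dnajc6) and the cysteine string protein (Dnajc5).

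The cells were primary neurons from cortices of embryonic day 15 mice, kept for 7 days in Neurobasal medium with B27. Every culture carries the same label for strain, C57BL/6N-Cdr1asem1Nikr, and is labelled either wild type or knockout for ciRS-7, a circular RNA made from the Cdr1as locus. Each of the 10 cultures (5 wild type, WT1 to WT5, and 5 knockout, KO1 to KO5) gave a normoxia and a deprivation library, so that 4 groups of 5 libraries were compared. Deprivation lasted 12 h in medium without added glucose and pyruvate in a hypoxic chamber at 1% O2. Control cells received 12 h of normoxia in the same base medium with 25 mM glucose and 0.2 mM pyruvate added. Total RNA was sequenced with a stranded kit, and a population of cells was lysed in each case, so fewer cells of a type and less RNA per cell cannot be told apart.

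The libraries held between 7071603 and 16657766 reads over the listed genes. Cdr1as checked the genotype labels: it had 545 to 1912 reads in each wild-type library and 2 to 16 in each knockout library. The 8 libraries of cultures 1 and 3 lay close to their group means (standard deviation over genes of 0.123 to 0.177 on the log2 scale), while the 12 libraries of cultures 2, 4 and 5 deviated by 0.274 to 0.418. Cultures 1 and 3 also were the lowest or highest of their group for 4.78 to 18.9% of genes, against 53.7 to 61.7% for the others. Which calls hold in cultures 2, 4 and 5 alone is given after the members. The mitochondrial ribosomal RNA mt-Rnr2 took 10.1 to 16.4% of reads under normoxia and 13.8 to 32.0% under deprivation. Summed astrocyte markers went from 1160-1460 to 1880-2330 CPM in wild type and from 888-1580 to 1520-2350 CPM in knockout. Of 9 listed, 6 were higher and 1 lower in wild type, and 5 were higher and 0 lower in knockout. Summed neuronal markers went from 4340-5700 to 2950-5550 CPM and from 4780-4970 to 3160-4550 CPM, with 4 of 10 and 5 of 10 lower, and all 10 proliferation markers were higher in both genotypes. Of 8 listed oligodendrocyte lineage markers 1 was higher and 2 lower in wild type, and 3 were higher and 0 lower in knockout. Beside these counts, 21.6% of all genes were higher and 22.8% lower in wild type, and 21% and 19.9% in knockout. None of the 10 microglial markers was listed. The part of these shifts in the results below was not tested.

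Deprivation moved members of the family in both directions. In wild-type cultures 27 of 59 members passed an adjusted p of 0.05 (limma with Benjamini-Hochberg adjustment over all genes of the table), 13 of them higher (21.6% of all genes) and 14 lower (22.8%). This share of 45.8% stood beside 44.3% of all 14235 genes, so the share of members called was near the background. Without Hspb1 and Hspb8 it was 25 of 57 (43.9%), 11 higher and 14 lower. In knockout cultures 22 of 58 members passed, 11 higher (21% of all genes) and 11 lower (19.9%), which is 37.9% beside 40.9% of all 14375 genes, and 21 of 57 (36.8%) without Hspb1. The median log2 change of the members was -0.13 in wild type and -0.06 in knockout, against -0.03 and 0 over all genes. Changes of at least 1 on the log2 scale were called for 3 members upwards and 5 downwards in wild type (4.76% of all genes in each direction), and for 3 upwards (4.78% of all genes) and 3 downwards (3.88%) in knockout. The normoxia and deprivation values of 15 members did not overlap in wild type (26.9% of all genes did not). In knockout those of 15 did not overlap (25.8% of all genes). Hspb1, which had to differ to be listed, is among the 3 upwards and the 15 without overlap in each genotype. Wild-type cultures 2 to 5 and knockout cultures 2, 4 and 5 carry batch labels 3.1, 3.2 or 3.3, which are pooled here as batch 3, and the labels do not say what the batch was. Within batch 3 alone, 19 of 59 wild-type members were called (34.5% of all genes) and 9 of 58 knockout members (16.3%).

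The comparisons in the 2 genotypes share no samples, and their changes ran together. Of the 57 members listed for both, leaving out Hspb1, 51 had the same sign, 20 were called in both (10 higher and 10 lower), and the 2 changes of a gene never differed by more than 0.37. Across these 57 genes, which are not independent replicates, Pearson's r was 0.988. These measures of agreement were not taken over all genes, of which 44.3% were called in wild type and 40.9% in knockout. The agreement is therefore not read as a trait of the family. Class counts are read beside 21.6% of all genes higher and 22.8% lower in wild type, and 21% higher and 19.9% lower in knockout. The HSPA family had 4 of 10 higher and 1 lower in both genotypes, and the HSP90 genes had 3 of 3 higher in wild type and 2 of 3 in knockout. None of the DNAJA and DNAJB genes was called higher, while 2 of 4 and 3 of 10 were lower in wild type and 1 of 4 and 2 of 10 in knockout. Among the DNAJC genes 2 of 25 were higher and 7 of 25 lower in each genotype.

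**Figure D1:**
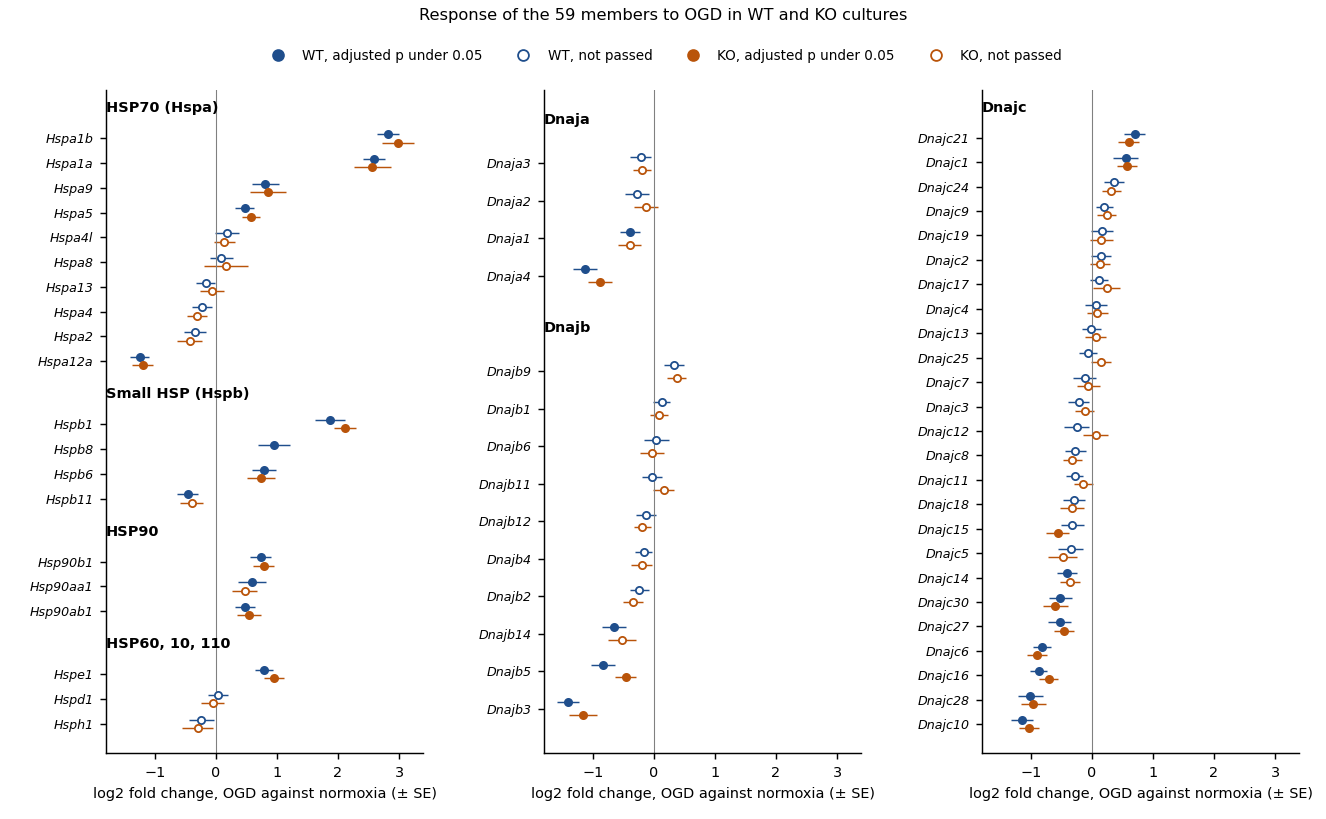
Log2 fold change of each member under deprivation (x axis, with its standard error) in wild-type and knockout cultures by class, with filled points for members past an adjusted p of 0.05 and open points for the others. Hspa1a, Hspa1b and Hspb1 lie beyond 1.8 in both genotypes, and Dnajb3, Hspa12a and Dnajc10 lie below -1 in both.

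The largest rises belonged to Hspa1a and Hspa1b, neighbouring single-exon genes on the minus strand of chromosome 17 that encode the stress-inducible cytosolic HSP70 (GRCm38, chr17:34969190-34972156 and chr17:34956436-34959238). Their upstream sequences are shown because they match the 2-unit form of the heat shock element, which HSF1 can bind, and because they are close copies. HSF1 binding was not measured. The 250 bases before the RefSeq transcription start (chr17:34972157-34972406 and chr17:34959239-34959488, both minus strand, GRCm38.p6) are printed 5′ to 3′ with the match to the 2-unit heat shock element GAANNTTC in capitals:
Hspa1a: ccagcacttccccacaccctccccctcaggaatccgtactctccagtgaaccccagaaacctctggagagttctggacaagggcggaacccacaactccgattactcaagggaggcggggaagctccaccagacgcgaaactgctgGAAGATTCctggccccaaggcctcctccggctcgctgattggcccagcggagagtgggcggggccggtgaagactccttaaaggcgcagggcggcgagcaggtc
Hspa1b: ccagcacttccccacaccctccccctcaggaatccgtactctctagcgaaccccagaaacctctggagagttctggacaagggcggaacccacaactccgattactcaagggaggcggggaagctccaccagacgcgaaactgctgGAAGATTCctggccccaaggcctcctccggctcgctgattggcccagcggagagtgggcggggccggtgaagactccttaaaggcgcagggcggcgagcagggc
The sequences are identical at 247 of 250 bases, and the match lies 104 to 97 bases before the start in each.

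Hspa1a stood at 9.06, 5.79, 7.08, 6.66 and 7.49 counts per 1e6 reads (CPM) in the wild-type normoxia libraries of cultures 1 to 5, and at 34.8, 34.5, 45.4, 63.2 and 53.8 CPM after deprivation. Every deprived library exceeded every normoxia library. The mean went from 7.22 ± 1.21 to 46.3 ± 12.4 CPM (SD, n = 5), a log2 change of 2.59 (SE 0.18, adjusted p = 3.31e-10). In the knockout cultures Hspa1a went from 10.7, 12.3, 7.37, 10.1 and 3.99 CPM to 40.4, 28.6, 63.6, 45.3 and 106 CPM, again with no overlap. The log2 change was 2.56 (SE 0.30, adjusted p = 3.01e-06), and culture KO5 held both the lowest normoxia and the highest deprivation value. Unless a block is named, the deprivation fits given here left out the pairing of libraries by culture. With the culture as a block, the adjusted p of Hspa1a in limma was 1.36e-05 in wild type and 0.000612 in knockout.

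Hspa1b showed the same pattern at a lower level. Its wild-type values were 6.48, 4.84, 4.29, 3.19 and 4.07 CPM under normoxia and 29.6, 24.7, 35.2, 42.7 and 42.0 CPM under deprivation, a log2 change of 2.82 (SE 0.18, adjusted p = 1.81e-10). In knockout it went from 4.56, 5.66, 4.40, 7.77 and 2.94 CPM to 35.5, 23.4, 47.9, 36.3 and 80.3 CPM, a log2 change of 2.98 (SE 0.26, adjusted p = 1.34e-07). The groups did not overlap in either genotype. The ratio of Hspa1b to Hspa1a went from 0.479-0.835 to 0.675-0.850 in wild type and from 0.427-0.773 to 0.753-0.880 in knockout, overlapping in both. Of the 50-base stretches of the Hspa1a exons, 58.8% also occur in Hspa1b, and how such reads were assigned is not given in the sources used here, so the split between these genes is uncertain.

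Hspa8, the constitutive cytosolic HSP70, did not pass the test. It held 2150 ± 438 CPM under normoxia and 2290 ± 511 CPM under deprivation in wild type (log2 change 0.09, SE 0.19, adjusted p = 0.728), and 2150 ± 899 and 2420 ± 1430 CPM in knockout (0.16, SE 0.36, adjusted p = 0.755). Culture KO5 set that spread, with 712 CPM under normoxia and 4910 CPM under deprivation; without its deprived library the change was -0.14. Per kilobase of exon, Hspa1a and Hspa1b together made up 0.818 ± 0.151% of the cytosolic HSP70 transcripts (Hspa1a, Hspa1b, Hspa2 and Hspa8) in wild-type normoxia libraries and 5.24 ± 1.92% in deprived ones. In knockout libraries the share was 1.01 ± 0.23% and 6.00 ± 0.824%. The 10 normoxia libraries spanned 0.609 to 1.40% and the 10 deprived libraries 2.76 to 7.82%. As counted, Hspa8 thus stayed the main cytosolic HSP70 transcript in every library. Of its 50-base stretches 38.6% also occur elsewhere, mostly in Gm15459, and how such reads were assigned is not given.

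The other cytosolic HSP70 relatives did not pass the test in either genotype under the authors' scaling. Hspa4, Hspa4l and Hsph1, members of the HSP110 family that exchange the nucleotide of HSP70, changed by -0.23, 0.18 and -0.24 in wild type and by -0.31, 0.14 and -0.30 in knockout on the log2 scale. Hspa2, an HSP70 best known from testis, changed by -0.35 and -0.43. Scaled by total reads instead, Hspa4 (-0.51, adjusted p = 0.018, and -0.60, adjusted p = 0.0145) and Hspa2 (-0.64, adjusted p = 0.00793, and -0.74, adjusted p = 0.00591) were called lower in wild type and knockout. Hspa12a, a distant HSP70 relative (chr19:58795750-58943654, minus strand), fell and is described with the lower members.

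**Figure D2:**
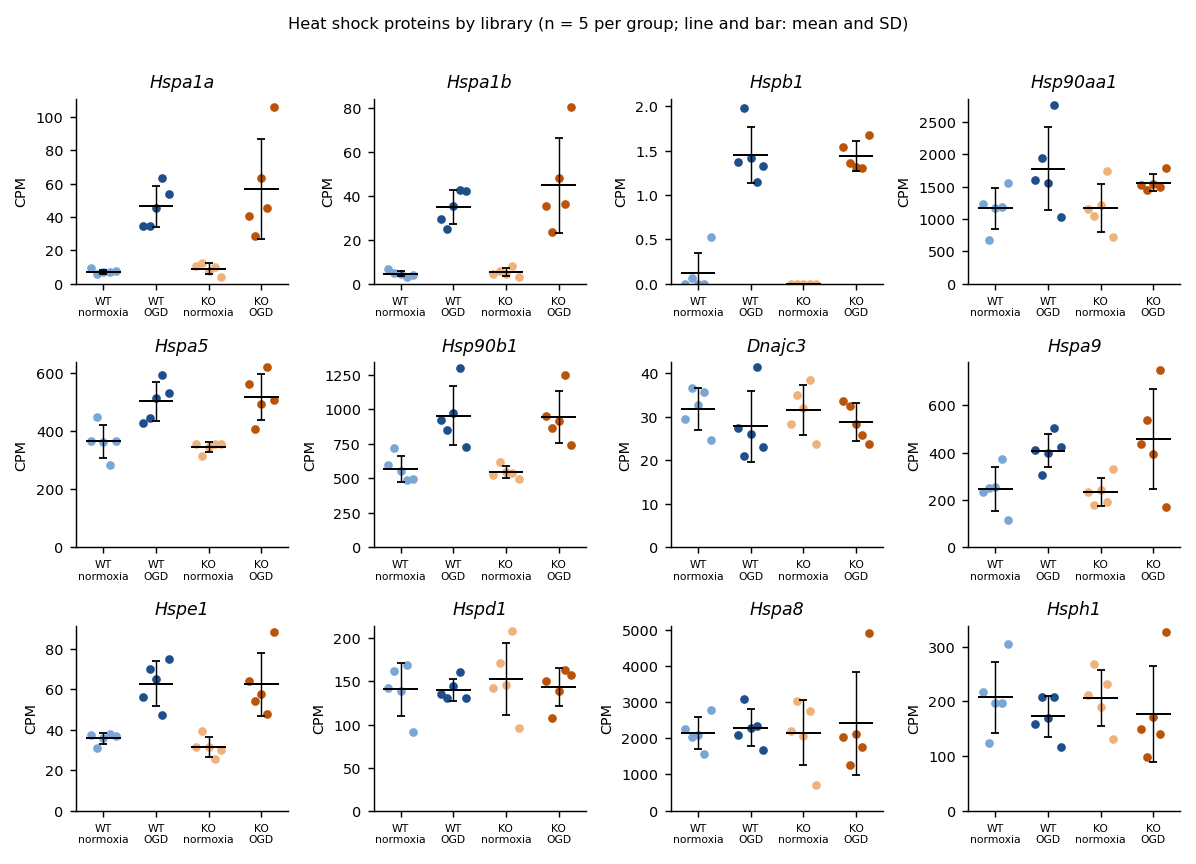
CPM (y axes, linear and starting at 0) of 12 chaperone genes in each library, by group, with each library as a point, the mean as a line and the SD as a bar (n = 5). For Hspa1a, Hspa1b, Hsp90b1 and Hspe1 every deprived library lies above every normoxia library of the same genotype.

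Among the small heat shock proteins Hspb6 rose, and Hspb1 and Hspb8, which had to differ to be listed, were higher after deprivation, all from very low levels. Hspb1 (chr5:135887919-135889563, plus strand), which encodes HSP25, the mouse HSP27, also has matches to the heat shock element near its start. Its 250 upstream bases (chr5:135887669-135887918, plus strand) hold 2 matches to GAANNTTC, at 117 to 110 and 97 to 90 bases before the start:
Hspb1: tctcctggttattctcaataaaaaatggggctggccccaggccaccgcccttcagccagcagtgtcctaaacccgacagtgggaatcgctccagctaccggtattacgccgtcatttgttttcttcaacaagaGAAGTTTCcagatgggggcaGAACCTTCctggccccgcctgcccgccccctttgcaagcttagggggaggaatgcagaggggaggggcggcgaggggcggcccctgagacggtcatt
Wild-type normoxia libraries held 0, 1, 0, 0 and 4 Hspb1 reads, and knockout normoxia libraries held 0 reads each. After deprivation the values were 1.37, 1.98, 1.42, 1.15 and 1.32 CPM in wild type and 1.54, 1.36, 1.31, 1.30 and 1.68 CPM in knockout, with no overlap. Against a floor of 3 reads over the whole knockout normoxia group (0.0495 CPM), the 1.42 CPM over the deprived knockout group was at least 28.7-fold higher. Of its 50-base stretches 48.8% also occur elsewhere, mostly in the pseudogene Hsp25-ps1.

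Hspb6, which encodes HSP20, went from 1.40 ± 0.374 to 2.71 ± 0.605 CPM in wild type (log2 change 0.79, SE 0.20, adjusted p = 0.00277) and from 1.57 ± 0.356 to 3.07 ± 1.39 CPM in knockout (0.74, SE 0.23, adjusted p = 0.0131). It was higher in all 5 cultures of each genotype, and the wild-type groups did not overlap. Hspb8, a partner of the co-chaperone BAG3, was listed for deprivation in wild type only and went from 0.501 ± 0.341 to 1.29 ± 0.360 CPM, with 1 to 11 reads in each normoxia library. Hspb11, an intraflagellar transport subunit despite its name, was called lower in wild type (-0.46, SE 0.17, adjusted p = 0.0347) and not in knockout (-0.40, SE 0.19, adjusted p = 0.107). The wild-type call was lost in 8 of 10 left-out fits and with the culture as a block (adjusted p = 0.0762). Hspb6, Hspb8 and Hspb11 were chosen after their values were seen.

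The cytosolic HSP90 genes were already among the most abundant members and rose less. Hsp90ab1, the constitutive form (chr17:45567775-45573271), read 1600, 1310, 1420, 1490 and 1550 CPM in wild-type normoxia libraries and 1990, 2670, 2010, 1840 and 1840 CPM after deprivation. These groups did not overlap, and the log2 change was 0.48 (SE 0.16, adjusted p = 0.0172). The knockout mean went from 1340 ± 310 to 1920 ± 319 CPM (0.54, SE 0.20, adjusted p = 0.0393), with overlap. Hsp90aa1, the more inducible form (chr12:110690605-110702728), went from 1160 ± 312 to 1780 ± 641 CPM in wild type (0.59, SE 0.23, adjusted p = 0.0427) and from 1170 ± 371 to 1560 ± 131 CPM in knockout (0.47, SE 0.21, adjusted p = 0.0809). The wild-type call for Hsp90aa1 stayed in only 2 of 10 fits that left out 1 library each (adjusted p from 0.00232 to 0.16), and with the culture as a block its adjusted p was 0.088. For Hsp90ab1 in knockout the range was 0.0174 to 0.113 and the block gave 0.086.

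Of the J-domain genes often listed as targets of HSF1, neither Dnajb1 nor Dnaja1 was called higher. Dnajb1, the J-domain partner of inducible HSP70, stood at 26.4 ± 1.63 and 29.0 ± 4.16 CPM in wild type (log2 change 0.13, SE 0.14, adjusted p = 0.496) and at 27.5 ± 4.54 and 29.0 ± 4.77 CPM in knockout (0.08, SE 0.15, adjusted p = 0.721). Dnaja1, a cytosolic J-domain partner of Hspa8, went from 215 ± 11.9 to 167 ± 40.3 CPM in wild type and was called lower (-0.39, SE 0.16, adjusted p = 0.0468), but this call stayed in only 2 of 10 left-out fits (adjusted p up to 0.115) and the block gave 0.0526. In knockout its change was -0.40 (SE 0.19, adjusted p = 0.0914). Of 10 members linked to HSF1, leaving out Hspb1, 5 were higher and 1 lower in wild type and 4 were higher and none lower in knockout, beside 21.6% and 21% of all genes higher. Hspe1, described with the mitochondrial members, is one of them. Dnajb6, a suppressor of protein aggregation, holds a match to the 3-unit heat shock element 46 to 34 bases before its start. It changed by 0.04 in wild type and -0.03 in knockout, neither called.

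Members of the ER showed a divided response. Hspa5 encodes BiP, the HSP70 of the ER, Hsp90b1 encodes GRP94, its HSP90, and Dnajc3 encodes a J-domain partner of BiP. These 3 are the members whose upstream windows matched the ER stress element (CCAAT and CCACG with 9 bases between them), so the sites are printed with the match in capitals (chr2:34772020-34772049 plus, chr10:86705632-86705661 minus, chr10:86705527-86705556 plus and chr14:118937822-118937851 plus):
Hspa5: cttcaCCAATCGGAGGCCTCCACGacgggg
Hsp90b1, far: caagcCCAATCGCAAGGAGCCACGcttcgg
Hsp90b1, near: aactcaCCAATCGTGCCTCACCACGcactc
Dnajc3: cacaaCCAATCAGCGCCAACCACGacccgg
The matches lie 65 to 47 bases before the start of Hspa5, 212 to 194 and 107 to 89 before that of Hsp90b1, and 105 to 87 before that of Dnajc3.

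Hsp90b1 (chr10:86690209-86705509, minus strand) read 595, 715, 550, 488 and 494 CPM in wild-type normoxia libraries and 920, 850, 973, 1300 and 727 CPM after deprivation. In knockout it read 522, 615, 543, 540 and 495 CPM and then 950, 863, 915, 1250 and 737 CPM. The groups did not overlap in either genotype, with log2 changes of 0.73 (SE 0.17, adjusted p = 0.00147) and 0.78 (SE 0.17, adjusted p = 0.00135). Hspa5 (chr2:34771970-34777547, plus strand) went from 364, 446, 360, 283 and 365 CPM to 428, 445, 512, 591 and 529 CPM in wild type, where culture WT2 read 446 and then 445 CPM, and the log2 change was 0.47 (SE 0.15, adjusted p = 0.0182). The knockout libraries went from 356, 313, 344, 353 and 354 CPM to 559, 405, 491, 619 and 505 CPM without overlap (0.57, SE 0.15, adjusted p = 0.00641).

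Dnajc3 (chr14:118937976-118981697, plus strand) was not called. It stood at 31.8 ± 4.90 and 27.8 ± 8.09 CPM in wild type (log2 change -0.22, SE 0.17, adjusted p = 0.318) and at 31.5 ± 5.72 and 28.8 ± 4.26 CPM in knockout (-0.12, SE 0.16, adjusted p = 0.559). Ratios inside each library are given as a description and no p-value is printed for them, since the pairs were chosen after the values were seen. The ratio of Hsp90b1 to Dnajc3 went from 13.7-20.3 to 31.3-40.7 in wild type and from 14.1-20.9 to 26.5-48.6 in knockout, with no overlap. For Hspa5 over Dnajc3 the ratio went from 7.91-14.8 to 14.2-22.9 in wild type and from 8.94-14.9 to 12.4-24.1 in knockout, with overlap in each. The ratio of Hsp90aa1 to Hsp90ab1 went from 0.517-1.003 to 0.559-1.505 and from 0.584-1.371 to 0.724-0.910, with wide overlap.

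The other J-domain proteins of the ER went both ways. Dnajb9 and Dnajb11, BiP partners induced in ER stress, were not called: Dnajb9 changed by 0.33 in wild type (adjusted p = 0.105) and 0.37 in knockout (adjusted p = 0.0511), and Dnajb11 by -0.03 and 0.16. Dnajc1, a membrane-bound BiP partner, rose from 27.1 ± 5.56 to 41.2 ± 14.5 CPM in wild type (0.55, adjusted p = 0.0305) and from 26.8 ± 6.35 to 39.3 ± 3.31 CPM in knockout (0.57, adjusted p = 0.00742). Its wild-type call was lost in 5 of 10 left-out fits and with the culture as a block (adjusted p = 0.0939). Dnajc10, which encodes the ER disulfide reductase ERdj5 (chr2:80315466-80354043, plus strand), had the lowest log2 change of the ER members. It read 97.8, 138, 116, 123 and 87.4 CPM in wild-type normoxia libraries and 51.6, 32.1, 49.4, 63.8 and 61.5 CPM after deprivation, without overlap (-1.14, SE 0.18, adjusted p = 3.32e-05). The knockout mean went from 105 ± 14.1 to 52.5 ± 13.3 CPM, again without overlap (-1.03, SE 0.17, adjusted p = 0.000141). On the ER list, which does not hold Dnajc16, 3 of 10 were higher in each genotype (beside 21.6% and 21% of all genes), and 2 were lower in wild type and 1 in knockout (beside 22.8% and 19.9%).

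Several of these calls depended on how libraries were put on a common scale. The authors' scaling set the median change of all genes near 0, whereas scaling by total reads moved that median to -0.30 in wild type and -0.28 in knockout. Higher genes made up 48.6% and 51.3% of all calls under the authors' scaling and 22.1% and 21.9% under total reads, where 9 members were higher and 29 lower in wild type and 5 higher and 25 lower in knockout. Hspa1a, Hspa1b and Hspe1 were called higher under both in each genotype. Hspb1 was too, but it had to differ to be listed, so its call does not count here. On the total-read scale Hsp90b1 was still called (0.45, adjusted p = 0.0281, and 0.49, adjusted p = 0.0422), while Hspa5 (adjusted p = 0.337 and 0.176), Hsp90ab1 (0.313 and 0.32) and Hsp90aa1 in wild type (0.235) were not. Members called lower on that scale alone included Dnajc5 in both genotypes (-0.63, adjusted p = 0.0127, and -0.77, adjusted p = 0.0244), and Dnajc3 (-0.50, adjusted p = 0.0177) and Hsph1 (-0.52, adjusted p = 0.0262) in wild type.

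Of the mitochondrial chaperonin genes, Hspe1 rose and Hspd1 was not called. Hspe1 encodes HSP10, the lid of the folding chamber, and Hspd1 encodes HSP60, its barrel. They are transcribed in opposite directions from RefSeq starts only 215 bases apart. Between these starts lie 2 overlapping matches, on opposite strands, to the 3-unit heat shock element. In this element GAA, TTC and GAA follow each other with 2 bases between them. The stretch is printed (chr1:55088053-55088082, plus strand) with the matches in capitals, 89 to 72 bases before the Hspe1 start:
Hspd1 and Hspe1: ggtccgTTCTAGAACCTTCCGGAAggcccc
Hspe1 read 37.3, 30.9, 35.8, 38.1 and 36.7 CPM in wild-type normoxia libraries and 56.3, 70.0, 65.2, 47.1 and 75.0 CPM after deprivation. Knockout values were 31.5, 39.3, 31.5, 25.7 and 30.1 CPM and then 64.2, 54.0, 57.8, 47.6 and 88.4 CPM. The groups did not overlap in either genotype, with log2 changes of 0.79 (SE 0.15, adjusted p = 0.000215) and 0.95 (SE 0.17, adjusted p = 0.000205).

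Hspd1 stood at 141 ± 30.4 and 141 ± 12.6 CPM in wild type (log2 change 0.03, SE 0.16, adjusted p = 0.908) and at 153 ± 41.4 and 144 ± 21.9 CPM in knockout (-0.05, SE 0.19, adjusted p = 0.836). Within libraries the ratio of Hspe1 to Hspd1 went from 0.191-0.403 to 0.293-0.571 in wild type and from 0.123-0.315 to 0.293-0.559 in knockout. The mean log2 ratio differed by 0.77 and 1.02, and the groups overlapped in each genotype. No p-value is printed for this difference, since the pair was chosen after the values were seen. The annotated transcripts of these genes overlap at their 5′ ends, and 39.7% of the 50-base stretches of Hspd1 and 18.4% of those of Hspe1 also occur in a pseudogene or another gene.

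**Figure D3:**
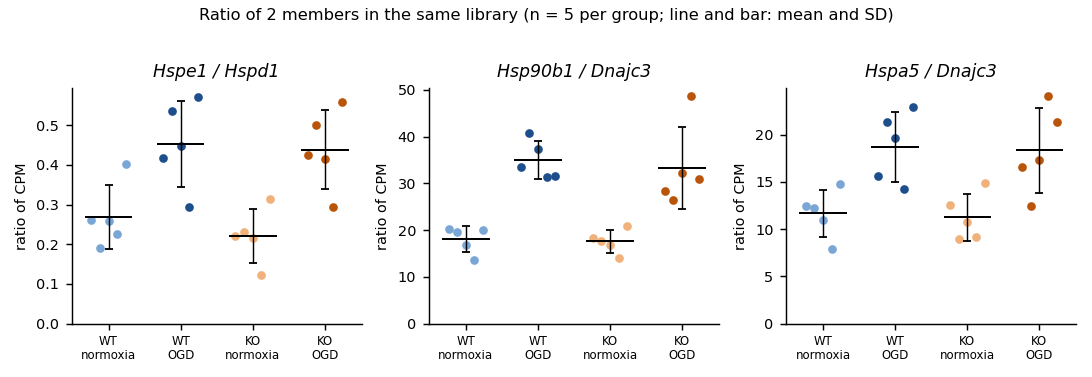
Ratio of CPM between pairs of members inside each library (y axes, linear and starting at 0), by group, with each library as a point, the mean as a line and the SD as a bar (n = 5). Hsp90b1 over Dnajc3 does not overlap between normoxia and deprivation in either genotype, while single libraries overlap for Hspe1 over Hspd1 and Hspa5 over Dnajc3.

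Hspa9, the mitochondrial HSP70 mortalin, read 234, 252, 255, 372 and 114 CPM in wild-type normoxia libraries and 410, 306, 397, 504 and 424 CPM after deprivation. It rose in all 5 wild-type cultures (log2 change 0.81, SE 0.22, adjusted p = 0.00546), although the groups overlapped. The knockout libraries went from 232, 176, 242, 192 and 330 CPM to 436, 536, 396, 751 and 168 CPM (0.85, SE 0.29, adjusted p = 0.0241). There culture KO5 moved the other way, and with the culture as a block the adjusted p was 0.07. Dnajc15 and Dnajc30, mitochondrial J-domain proteins, were lower where called: Dnajc30 by -0.52 in wild type (adjusted p = 0.0331) and -0.60 in knockout (adjusted p = 0.021), and Dnajc15 by -0.56 in knockout (adjusted p = 0.0234) against -0.32 in wild type (adjusted p = 0.184). The wild-type call of Dnajc30 was lost in 6 of 10 left-out fits and with the culture as a block (adjusted p = 0.0817). On the mitochondrial list 2 of 8 were higher in each genotype, near the 21.6% and 21% of all genes, and 1 was lower in wild type and 2 in knockout.

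The members that fell most were J-domain proteins and Hspa12a. Dnajb3 (chr1:88204732-88205782, minus strand) read 6.34, 6.06, 7.18, 6.09 and 8.67 CPM in wild-type normoxia libraries and 2.02, 2.35, 2.21, 1.66 and 3.65 CPM after deprivation. In knockout it went from 4.39, 3.89, 5.94, 5.29 and 5.52 CPM to 2.79, 1.93, 1.60, 0.94 and 3.37 CPM. The groups did not overlap, and the log2 changes were -1.41 (SE 0.18, adjusted p = 3.86e-06) and -1.16 (SE 0.23, adjusted p = 0.000561). Hspa12a read 64.0, 55.6, 67.0, 86.0 and 52.0 CPM and then 24.3, 27.6, 26.1, 21.5 and 36.0 CPM in wild type, a log2 change of -1.25 (SE 0.16, adjusted p = 4.14e-06). In knockout it read 69.2, 64.1, 74.0, 48.1 and 73.9 CPM and then 30.2, 41.4, 24.4, 23.9 and 24.3 CPM, a change of -1.20 (SE 0.17, adjusted p = 3.02e-05). No deprived library reached the lowest normoxia library of its genotype for either gene.

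Dnaja4, a cytosolic J-domain protein (chr9:54698873-54716315, plus strand), went from 7.95 ± 1.16 to 3.52 ± 1.21 CPM in wild type (log2 change -1.13, SE 0.20, adjusted p = 9.14e-05) and from 6.34 ± 1.02 to 3.37 ± 1.13 CPM in knockout (-0.88, SE 0.20, adjusted p = 0.00203). Dnajc28 (chr16:91614254-91619026, minus strand) went from 6.52 ± 0.900 to 3.13 ± 0.933 CPM (-1.01, SE 0.20, adjusted p = 0.000287) and from 5.86 ± 1.36 to 2.84 ± 0.898 CPM (-0.96, SE 0.21, adjusted p = 0.00109). Neither gene's groups overlapped. Dnajc16, a J-domain protein of the ER membrane that is on no list and was chosen after its values were seen, went from 28.9 ± 1.71 to 15.7 ± 2.25 CPM (-0.87, SE 0.14, adjusted p = 4.59e-05) and from 28.7 ± 2.91 to 17.5 ± 3.48 CPM (-0.71, SE 0.15, adjusted p = 0.000922), also without overlap.

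Of the synaptic J-domain proteins, Dnajc6 fell. This gene (chr4:101496648-101642799, plus strand) encodes auxilin, which recruits Hspa8 to strip clathrin from vesicles. It read 92.9, 76.8, 91.9, 110 and 87.8 CPM in wild-type normoxia libraries and 45.3, 42.4, 53.3, 69.2 and 51.7 CPM after deprivation, with no overlap (-0.82, SE 0.15, adjusted p = 0.000215). In knockout it went from 97.7, 64.2, 91.4, 93.4 and 90.2 CPM to 46.9, 67.6, 43.0, 41.0 and 37.9 CPM (-0.90, SE 0.17, adjusted p = 0.000386), and only culture KO2 overlapped. Dnajc5, the cysteine string protein, was not called: it stood at 198 ± 29.6 and 164 ± 61.0 CPM in wild type (-0.35, SE 0.21, adjusted p = 0.178) and at 190 ± 37.2 and 143 ± 47.1 CPM in knockout (-0.48, SE 0.24, adjusted p = 0.112), although the culture as a block called it lower in knockout (adjusted p = 0.0415). Dnajb5, a cytosolic J-domain protein, was lower in both (-0.83, adjusted p = 0.002, and -0.46, adjusted p = 0.0402), although its knockout call was lost in 7 of 10 left-out fits and with the block (adjusted p = 0.0692).

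**Figure D4:**
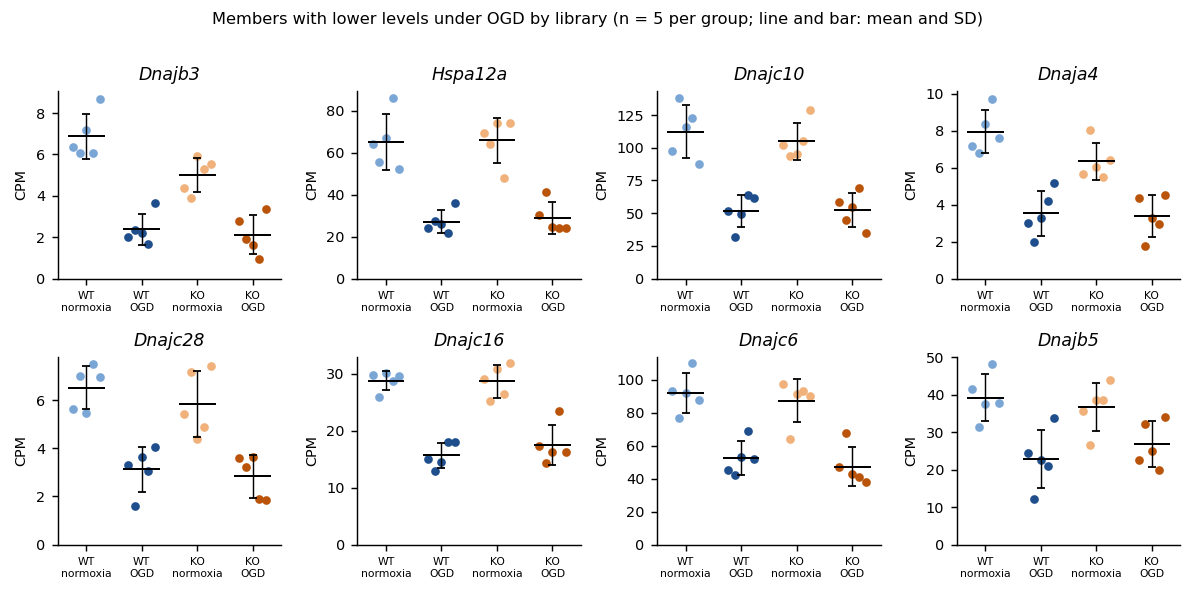
CPM (y axes, linear and starting at 0) of 8 lower members in each library, by group, with each library as a point, the mean as a line and the SD as a bar (n = 5). For Dnajb3, Hspa12a, Dnajc10 and Dnaja4 every deprived library lies below every normoxia library of the same genotype.

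Calls for 8 members held in both genotypes under every setting tried, the fit to cultures 2, 4 and 5 alone among them: Hspa1a, Hspa1b and Hspe1 higher, and Dnaja4, Dnajb3, Dnajc10, Dnajc28 and Hspa12a lower. The share of all genes that held in this way was not counted. In cultures 2, 4 and 5 alone 11 wild-type members were called (16.9% of all genes) and 9 knockout members (16.3%). Beside these 8 and Hspb1, they were Hspa9 (adjusted p = 0.0433) and Dnajb5 (adjusted p = 0.0262) in wild type. Every other call was lost there, among them Hsp90b1 (adjusted p = 0.111 and 0.164), Hspa5 (0.28 and 0.302), Dnajc6 (0.0722 and 0.0701) and Dnajc16 (0.0566 and 0.14) in wild type and knockout. This fit held fewer libraries per group, and those that deviated most from their group means. Its log2 changes stayed near those of the full fit: 0.74 and 0.76 for Hsp90b1, 0.53 and 0.56 for Hspa5. For Dnajc6 they were -0.76 and -0.78, and for Dnajc16 -0.79 and -0.64. Dnajc21, which acts in ribosome assembly, rose from 15.7 ± 2.32 to 26.3 ± 7.11 CPM in wild type (0.70, adjusted p = 0.00244) and from 14.1 ± 0.774 to 22.1 ± 6.73 CPM in knockout (0.60, adjusted p = 0.00803), in all 5 cultures of each. It was chosen after its values were seen. Of 3 vesicle-linked members 1 was lower in each genotype (beside 22.8% and 19.9% of all genes). None of 3 nuclear J-domain proteins was called (beside 44.3% and 40.9% of all genes).

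Levels of different members can be compared only per length of transcript. In CPM per kilobase of exon, Hspa8 (500) and Hsp90ab1 (491) led in wild-type normoxia libraries, followed by Hsp90aa1 (296), Hsp90b1 (141) and Hspa5 (86.0). Under deprivation Hsp90ab1 (690) led, followed by Hspa8 (533), Hsp90aa1 (453), Hsp90b1 (237) and Hspa5 (118). Of the 50-base stretches of Hspa8 38.6%, and of those of Hsp90aa1 47.5%, also occur elsewhere, so the levels of these genes are uncertain. Hspa1a moved from rank 44 to rank 19 of 59 (2.43 to 15.6 CPM per kilobase), Hspa1b from 54 to 21 (1.63 to 12.4), and Hspb1 from 59 to 52.

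Upstream matches were counted over both strands of the 250 bases before each start, with 65 RefSeq promoters for 48 of the 59 members. The 3-unit heat shock element (GAA, TTC and GAA, each 2 bases apart) was found in 4 member promoters (6.15%, genes Dnajb6, Hspd1 and Hspe1). It was found in 0.466% of all 32851 promoters and in 0.367% of the 13094 promoters of genes listed for wild-type deprivation. The 4 are not separate sites, since Hspd1 and Hspe1 share a stretch and both Dnajb6 promoters hold the same match. In these sets, in the same order, the 2-unit forms GAANNTTC or TTCNNGAA, which every 3-unit match contains, were found in 23.1%, 12.8% and 9.76%. The ER stress element was found in 4.62%, 0.113% and 0.115%. Also counted were the hypoxia response core ACGTG or GCGTG (66.2%, 38.6% and 56.2%), TGACGTCA (1.54%, 1.55% and 2.67%) and TATAAA (4.62%, 12.4% and 6.25%). Of the 13 members with a 2-unit match, 5 were called higher in both genotypes (Hspa1a, Hspa1b, Hspb1, Hspb6 and Hspe1). Among them Hspb1 had to differ to be listed, so its call does not count for a direction. Lower were 4 in wild type (Dnaja1, Dnaja4, Dnajc10 and Dnajc27) and 3 in knockout (the same without Dnaja1). Beside these counts, 21.6% of all genes were higher and 22.8% lower in wild type, and 21% and 19.9% in knockout. Of the 3 with a 3-unit match Hspe1 was called higher and Hspd1 and Dnajb6 were not called, and of the 3 with an ER stress element Hsp90b1 and Hspa5 were called higher and Dnajc3 was not called. A match is a description of the letters, not a site in use.

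Folding genes outside the family were followed as lists. Their counts are read beside 21.6% of all genes higher and 22.8% lower in wild type, and 21% higher and 19.9% lower in knockout. Hsf1 itself was higher (log2 change 0.74 in wild type and 0.67 in knockout) and was the only gene called higher in the list of HSF factors and cytosolic co-chaperones, where 4 of 22 were lower in wild type and 3 of 23 in knockout, among them Fkbp5 (-0.88 and -0.82) and Bag2 (-0.68 and -0.74). Of 14 subunits of the cytosolic chaperonin TRiC and of prefoldin, 4 were higher in wild type and 2 in knockout and none lower, with Pfdn5 at 0.45 and 0.46 and Cct4 at 0.45 and 0.42 (the last not called). Of 19 ER folding genes 5 were higher and 2 lower in wild type, and 5 higher and 1 lower in knockout. Ddit3, the stress factor CHOP, changed by 1.09 and 1.42 and P4hb, a disulfide isomerase, by 0.69 and 0.58. Xbp1, a transcription factor of the unfolded protein response, changed by -0.62 and -0.55, and Edem1, which directs misfolded glycoproteins to degradation, by -0.56 and -0.33 (the last not called). In the mitochondrial list 3 of 13 were higher in wild type and 2 in knockout and none lower, with the stress factor Atf5 at 0.65 and 0.75 and the import subunit Timm44 at 0.52 and 0.59. Sec63, an ER translocon subunit, rose by 0.68 and 0.66 as the only called gene of 4 other J-domain genes.

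The knockout of ciRS-7 was compared with wild type in each condition, and no member was called. Under normoxia 0 of 57 members passed in limma (0.0353% of all genes did), with 1 member below an unadjusted p of 0.05 (1.81% of all genes), and under deprivation 0 of 59 passed (0.0282% of all genes), with none below 0.05 (1.78% of all genes). The voom variant of limma also called 0 members in each, and limma with library weights called 3 (6.54% of all genes under that setting) and 19 (33.5%). The log2 changes of the members ran from -0.40 to 0.34 and from -0.32 to 0.35. The lowest p under normoxia belonged to Dnajb3, at 6.92, 6.58, 7.85, 6.65 and 9.46 CPM in wild type and 4.90, 4.32, 6.69, 5.95 and 6.15 CPM in knockout, where the highest knockout library overlapped the lowest wild-type ones (-0.40, SE 0.16, unadjusted p = 0.0203). Hspa2 (0.34, SE 0.17, unadjusted p = 0.0637) and Dnaja4 (-0.28, SE 0.15, unadjusted p = 0.0786) came next. Dnajc19, a mitochondrial import J-domain protein chosen after its values were seen, was the only member whose groups did not overlap (8.36 ± 1.04 in wild type and 6.97 ± 0.305 CPM in knockout; 0.148% of all genes were lower without overlap). Under deprivation Dnajc12 (0.35, SE 0.22, unadjusted p = 0.132), Dnajc30 (-0.32, SE 0.21, unadjusted p = 0.151) and Dnajb5 (0.29, SE 0.22, unadjusted p = 0.216) had the lowest p. Hspa1a stood at 41.8 ± 11.4 CPM in deprived wild-type and 51.8 ± 27.8 CPM in deprived knockout libraries (0.20, SE 0.28). Values differ slightly from those given above because each table was normalized by itself.

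The response to deprivation itself was compared between genotypes in 1 model over all 20 libraries. No gene of 13688 was called in limma, 0.731% of genes had an unadjusted p under 0.05, and none of the 57 members did. The response of knockout minus that of wild type was -0.04 (SE 0.38) for Hspa1a, 0.14 (SE 0.35) for Hspa1b and 0.15 (SE 0.25) for Hspe1. The lowest p belonged to Dnajb5 (0.36, SE 0.30, unadjusted p = 0.237), Dnajc12 (0.35, SE 0.36, unadjusted p = 0.331) and Dnajc25 (0.21, SE 0.25, unadjusted p = 0.4). The standard errors of the members ran from 0.21 to 0.45, so differences of that size, and also larger ones, could not be called here. The model used a correlation of -0.169 between libraries of the same culture, and a negative value enlarges these errors.

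**Figure D5:**
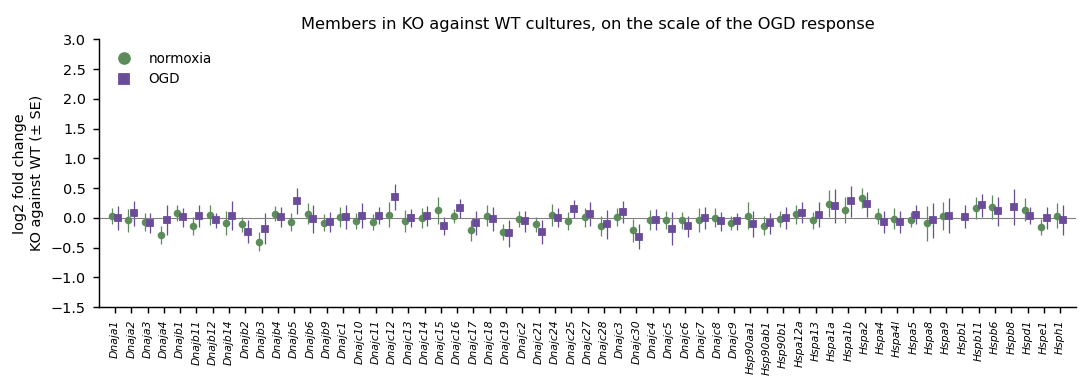
Log2 fold change of knockout against wild type (y axis, with its standard error) for each member (x axis), under normoxia (circles) and deprivation (squares). All points lie between -0.5 and 0.5, and no member was called.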

How the data were processed

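RNA-seq was read in 20 libraries, 5 in each of 4 groups. The authors deposited log2 CPM values in 4 tables of 10 libraries, 1 table for each comparison, on the mm10 build per the submitters' processing notes; the aligner and the counting of reads are not given in the sources used here. Each table was normalized by itself, and levels were set side by side only within a table. The extreme deposited values of every gene in every group had been drawn inwards, to the 10th and 90th percentile, as tested on the values. This was undone exactly. After that at least 99.9% of low values in each library were whole reads (within 0.05 reads), against 45.5 to 92.8% as deposited, and CPM were recomputed from those reads.

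Groups were compared with limma 3.58.1 in R 4.3.3 on log2 CPM (empirical Bayes with an intensity trend, Benjamini-Hochberg adjustment over all genes of a table, threshold 0.05, no block). The interaction was fitted over 13688 genes at a prior count of 2 with the culture as a block. The procedure was also run on simulated counts with independent libraries of equal dispersion. The libraries here differ in spread and are paired by culture, so that run cannot vouch for these p-values. Nothing states that the 5 replicates of a group came from separate animals beyond their labels, so p-values measure the spread between these samples. Promoter sequences and starts come from RefSeq (GRCm38.p6), and gene positions from GENCODE release 21 for mouse on GRCm38. CPM intervals would cover counting error only.

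The members and lists were chosen with earlier results of these data known. Named members were those called with a log2 change of at least 1, without overlap and in 1 direction in all 5 cultures, a set of best-known chaperones, and the 3 lowest p of each knockout comparison and of the interaction; of other lists, the 2 largest rises and falls in wild type. Other members that the text names were chosen after their values were seen.

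For deprivation the labels pair the libraries: replicate numbers mark the same culture and batch. Same-numbered libraries nevertheless deviated apart, with correlations from -0.643 to 0.057 in wild type and -0.79 to -0.065 in knockout. Where libraries of a culture deviate in opposite directions, a fit without a block gives errors that are too small. Knockout and wild-type libraries of the same number come from different cultures, and share a batch label only for number 1. Alternatives covered the deposited values, blocks, batch, prior counts, scaling, filters, weights, voom and each library left out. Scaling by total reads and cultures 2, 4 and 5 alone were added after seeing the data.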

Additional observations from a re-analysis of the deposited data

Results flagged for a closer look

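Among 112 groups of 5 libraries, over 28 members, 8 held a library that stood far from the other 4 by Dixon's test (gap over range above 0.71), where chance alone gives about 5.6. In log2 CPM these were Hspb1 at -0.09 in wild-type normoxia replicate 5 (0.526 CPM against 0 to 0.0681 in the others), Hspa8 at 9.48 in knockout normoxia replicate 5 (712 CPM against 2060 to 3040), and Hspa5 at 8.29 in knockout normoxia replicate 2 (313 CPM against 344 to 356). Hsp90ab1 stood at 11.38 in deprived wild-type replicate 2 (2670 CPM against 1840 to 2010). Dnajc5 stood at 5.99 in deprived knockout replicate 5 (63.3 CPM against 145 to 179), and Dnajc6 at 6.01 in knockout normoxia replicate 2 (64.2 CPM against 90.2 to 97.7). Dnajc30 stood apart in knockout normoxia replicate 4 at 2.82 (6.63 CPM against 4.29 to 4.82) and in deprived knockout replicate 5 at 1.08 (1.68 CPM against 3.29 to 4.13). Culture KO5 accounts for 3 of the 8, and none comes from cultures 1 or 3.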

How the results depend on the processing

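Most settings left the count of members called within 1.5 times its value. In wild type, cultures 2, 4 and 5 alone gave 11 and library weights 49, against 27; in knockout the deposited values gave 35, batch 3 alone 9, cultures 2, 4 and 5 alone 9 and library weights 43, against 22. Library weights also called 3 and 19 members between genotypes, where every other setting gave 0. They called 86.5% and 73.6% of all genes under deprivation, and the cause was not tested. Leaving out 1 library at a time gave 19 to 28 members in wild type, 18 to 25 in knockout and 0 between genotypes and for the interaction.

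With the replicate number as a block, 20 members were called in wild type (11 higher, 9 lower; 39.9% of all genes) and 20 in knockout (9 higher, 11 lower; 33.6%). Between genotypes it called 0 members, and same-numbered libraries correlated from -0.071 to 0.242 under normoxia and from -0.207 to 0.238 under deprivation, best with their own number in 3 of 5 and 2 of 5. For the interaction, neither dropping the block nor fitting it as culture terms called a member (0 each).

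Changes that turned sign were all uncalled. For Hspa8 in wild type they were -0.19 by total reads, and -0.02 without deprived replicate 2 or normoxia replicate 4. In knockout they were -0.01 as deposited, -0.14 by total reads, -0.14 without deprived replicate 5 and -0.20 without normoxia replicate 5. Hspd1 turned in wild type to -0.03 as deposited, -0.25 by total reads, -0.02 without deprived replicate 4 and -0.12 without normoxia replicate 5, and in knockout to 0.04 and 0.07 without deprived replicate 2 and normoxia replicate 4. Dnajb1 turned to -0.15 (wild type) and -0.21 (knockout) by total reads and to -0.06 in knockout within batch 3, which is also cultures 2, 4 and 5. The Dnajc12 interaction was -0.08 within batch 3. Over single libraries left out, Hspa8 ran from -0.02 to 0.19 in wild type and from -0.20 to 0.35 in knockout, and Hspd1 from -0.12 to 0.10 in wild type. The cause was not tested. Hspb1 and Hspb8, at about 1 CPM, rest on few reads.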
